A study of Rattus norvegicus with 12 samples.

Results

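The genes described here are 9 members of the insulin-like growth factor (IGF) system: the ligands Igf1 and Igf2, the type 1 receptor Igf1r and the binding proteins Igfbp2, Igfbp3, Igfbp4, Igfbp5, Igfbp6 and Igfbp7. They were chosen by gene symbol, with earlier results of these data known, and all 9 were found among the 22601 genes of the expression table. The tissue came from a drilled defect of the distal femur in 8-week-old Sprague Dawley rats and was taken 2 weeks after the defect was made. In the control group the defect held no scaffold, and in the other 3 groups, called hydrogel, PCL and β-TCP, it held a 3D printed scaffold of gelatin methacryloyl hydrogel, of polycaprolactone, a slowly degrading polyester, or of beta-tricalcium phosphate, a resorbable ceramic. Each of the 4 groups had 3 polyA RNA libraries, the labels name no genetic change in any group, and they do not say whether the libraries of a group came from separate rats or from pooled tissue. The p-values therefore measure only the spread between these libraries.

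As background, IGF1 and IGF2 act through the type 1 IGF receptor, a tyrosine kinase that signals through insulin receptor substrates to PI3 kinase and AKT. In bone both ligands are made by cells of the osteoblast and cartilage lineages and are stored in the matrix, and they promote matrix formation and chondrocyte growth. The binding proteins hold the ligands outside cells, prolong their life, keep them from the receptor or, once cut by proteases, release them.

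The libraries held 15035925 to 17357830 fragments on the genes of the table, recovered from the deposited FPKM (fragments scaled to transcript length and to library size). Osteoblast markers were abundant in every library, with a summed level of 6257 to 25760 FPKM over 10 genes. Control replicate 3 stood apart from the other libraries. Its 12 cartilage markers summed to 12670 FPKM, against 85.0 to 2101 FPKM elsewhere, while its 8 neutrophil markers summed to 39.4 FPKM, against 806.5 to 5300 FPKM elsewhere. In the β-TCP group, replicates 2 and 3 were nearly alike. Over 13340 genes the median chi-square of their fragment counts was 0.717, against 2.76 to 31.0 for the other 11 pairs of libraries within a group and 0.455 by sampling alone, and 12.4% of genes differed at the level where sampling alone gives 5%. They differed by more than sampling noise, but this does not tell tissue of 2 rats from 2 libraries of 1 RNA. The labels list them as separate samples, and they were kept so. Each comparison of β-TCP was also made with the pair averaged as 1 library. With the pair averaged, none of the 27 log2 changes of the members in the 3 comparisons of β-TCP with another group was called at an adjusted p under 0.05, the changes moved by at most 0.17, and 1 turned its sign. In that fit limma called 0.0159% of all genes against hydrogel, 0.00795% against PCL and 0.0636% against control.

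The promoters of 3 binding proteins are shown first, because Igfbp3 was the only member called between scaffold groups at an adjusted p under 0.05, Igfbp4 was the most abundant binding protein in the scaffold groups, and Igfbp5 was the member with the most negative difference between β-TCP and hydrogel. Each is the 250 bases before the annotated start in RefSeq (GRCr8, a later build than the Rnor_6.0 named for the expression files), written 5′ to 3′ in lower case, and capitals mark TATA-type motifs.
Igfbp3 promoter, chr14:86277945-86278194, minus strand: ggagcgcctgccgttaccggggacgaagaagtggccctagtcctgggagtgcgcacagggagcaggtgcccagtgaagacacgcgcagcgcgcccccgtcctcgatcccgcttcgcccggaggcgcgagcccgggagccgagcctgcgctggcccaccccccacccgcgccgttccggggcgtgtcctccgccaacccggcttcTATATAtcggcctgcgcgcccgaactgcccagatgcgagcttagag
Igfbp4 promoter, chr10:84491221-84491470, plus strand: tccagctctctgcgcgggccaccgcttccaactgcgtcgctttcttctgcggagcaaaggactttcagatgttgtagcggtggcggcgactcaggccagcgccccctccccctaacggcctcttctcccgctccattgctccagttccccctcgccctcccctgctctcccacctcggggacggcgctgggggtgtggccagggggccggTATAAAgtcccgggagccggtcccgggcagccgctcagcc
Igfbp5 promoter, chr9:81914188-81914437, minus strand: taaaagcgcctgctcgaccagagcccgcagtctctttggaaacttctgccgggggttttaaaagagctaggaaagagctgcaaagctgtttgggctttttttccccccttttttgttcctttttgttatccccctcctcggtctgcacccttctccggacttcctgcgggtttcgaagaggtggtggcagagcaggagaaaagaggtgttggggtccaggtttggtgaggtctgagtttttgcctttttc
The Igfbp3 promoter held 1 TATATA, whose first base lay 46 bases before the start, and the Igfbp4 promoter held 1 TATAAA. Both of these TATA-type motifs and the GC box GGGCGG were searched on either strand. The TATA-type motifs can overlap each other, which did not occur here. The Igfbp5 promoter held none of the motifs searched. Of 33469 promoters of this length, 12.9% held at least 1 match to TATAAA, while 5.45% held at least 1 match to TATATA, and 30.5% held the GC box. GC content was 71.6% in the Igfbp3 promoter, 68.8% in that of Igfbp4 and 51.6% in that of Igfbp5. The matches describe the letters of these windows only.

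The levels of the 9 members spanned 1847-fold over all libraries on the FPKM scale, which is per transcript length. Igfbp4, Igfbp7 and Igfbp5 were the most abundant, Igf1, Igfbp3 and Igfbp6 lay between 5.84 and 40.0 FPKM, and Igf2, Igf1r and Igfbp2 had the lowest means. Control replicate 3 held the highest of all 12 values for 5 of the 9 members (Igf2, Igf1r, Igfbp3, Igfbp6 and Igfbp7) and the lowest for 2 of them (Igfbp4 and Igfbp5). In bulk tissue a lower level can come from fewer cells of a type or from less RNA per cell, and these cannot be told apart here.

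**Figure D1:**
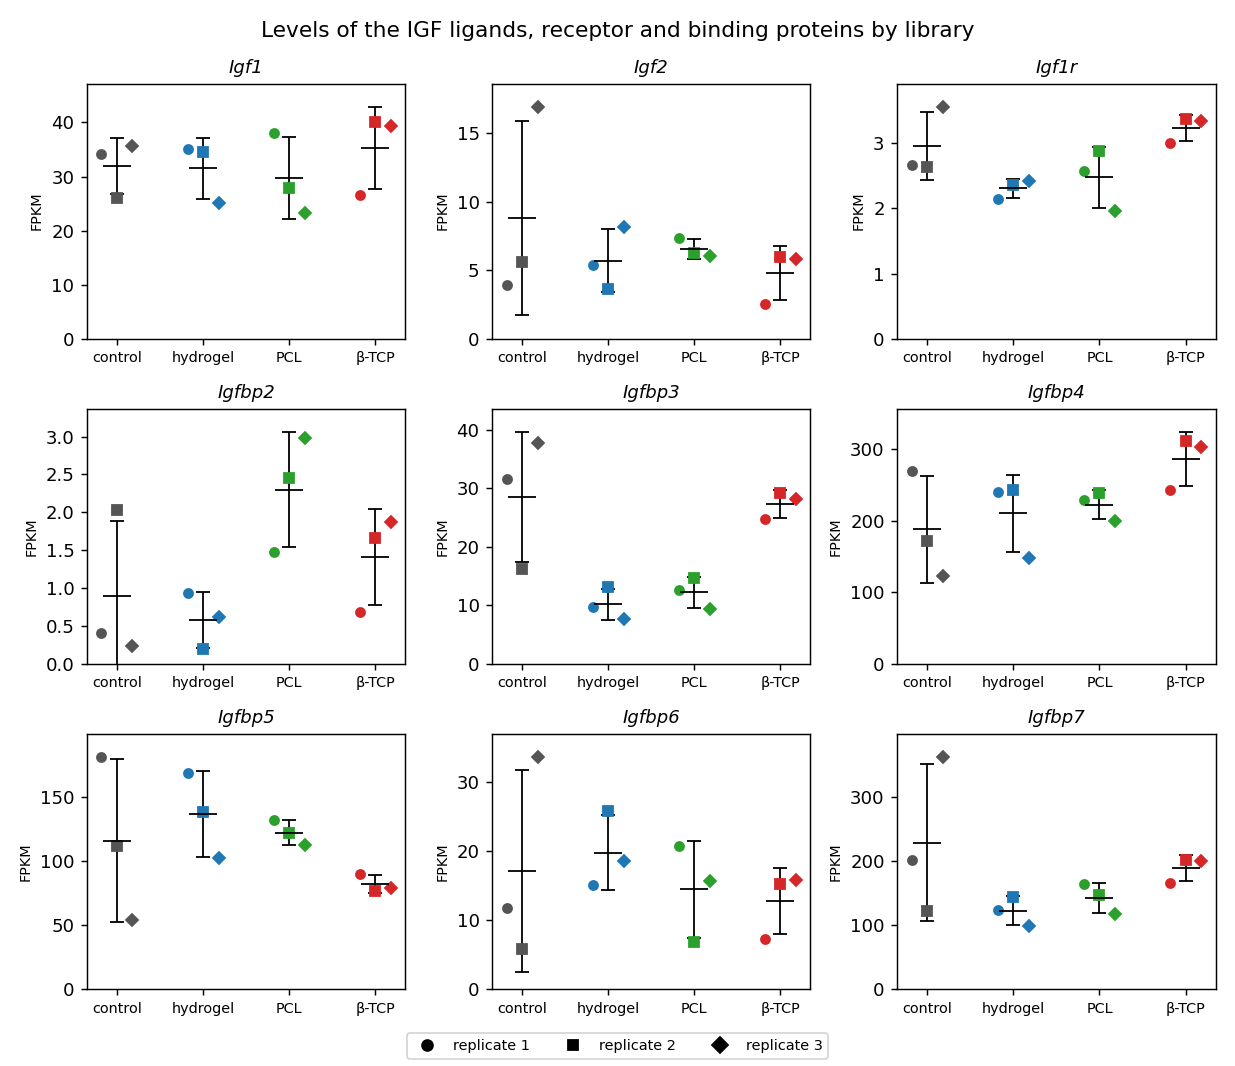
Levels of the 9 members in FPKM (y axis, from 0) in the 4 groups (x axis), with 1 point per library, its shape giving the replicate number, and a black line and bar for the mean and SD of 3 libraries (a bar that would pass below 0 ends at the axis). The 3 hydrogel and 3 PCL points of Igfbp3 lie between 7.62 and 14.6 FPKM, below all control and β-TCP points, and control replicate 3 (grey diamond) is the highest point for Igf2, Igf1r, Igfbp3, Igfbp6 and Igfbp7.

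Among the ligands, Igf1, the main circulating growth factor of the system and also made in bone, was at 34.1, 26.1 and 35.6 FPKM in control replicates 1 to 3, at 35.1, 34.5 and 25.0 in hydrogel, at 38.0, 27.8 and 23.3 in PCL and at 26.6, 40.0 and 39.4 in β-TCP. All 4 groups overlapped. The order of the means was β-TCP (35.3 ± 7.59 SD), control (32.0 ± 5.13), hydrogel (31.5 ± 5.67) and PCL (29.7 ± 7.53), and no neighbours in it differed beyond their spread. The widest pairwise difference, β-TCP against PCL, was 0.25 ± 0.22 (SE) on the log2(FPKM + 1) scale, with a 95% interval of -0.25 to 0.74 and a limma adjusted p = 0.514. With β-TCP replicates 2 and 3 averaged it was 0.15 ± 0.26.

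Igf2, the fetal growth ligand, which is imprinted, was at 3.93, 5.61 and 16.9 FPKM in control, at 5.36, 3.60 and 8.12 in hydrogel, at 7.36, 6.27 and 6.03 in PCL and at 2.50, 5.99 and 5.80 in β-TCP. The control value of 16.9 FPKM came from replicate 3, and the other 2 control libraries lay within the range of the scaffold libraries. The control group had the highest mean (8.82 ± 7.07 SD, n = 3), and its SD was nearly as large as the mean. The widest difference was β-TCP against control, with a log2 change of -0.60 ± 0.45 (limma adjusted p = 0.577), and it was -0.05 without control replicate 3 and -0.77 ± 0.52 with β-TCP replicates 2 and 3 averaged. The 3 β-TCP libraries lay below the 3 PCL libraries, with a log2 change of -0.45 ± 0.45 (limma adjusted p = 0.551), or -0.62 ± 0.52 with the pair averaged. Igf1 exceeded Igf2 in every library, from 2.11-fold in control replicate 3 to 10.6-fold in β-TCP replicate 1.

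Igf1r, the receptor of both ligands, was low in every group, at 2.67, 2.64 and 3.56 FPKM in control, 2.14, 2.37 and 2.43 in hydrogel, 2.58, 2.89 and 1.97 in PCL and 3.01, 3.37 and 3.35 in β-TCP. Its 3 β-TCP libraries lay above all hydrogel and PCL libraries, and its 3 hydrogel libraries lay below all control libraries. The difference between β-TCP and hydrogel was 0.36 ± 0.14 on the log2 scale (unadjusted p = 0.0234, adjusted p = 0.103 by limma), so it did not pass. Against PCL it was 0.29 ± 0.14 (limma adjusted p = 0.228). With the pair averaged these values were 0.34 ± 0.16 and 0.27 ± 0.16. The order of the means was β-TCP, control, PCL and hydrogel, and no neighbouring pair passed the test.

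Igfbp3, the main carrier of IGFs in blood, where it joins the acid-labile subunit, and a protein also found in bone, was the only member called at an adjusted p under 0.05 in any comparison of the fit over all groups. Its level was 31.5, 16.2 and 37.8 FPKM in control, 9.74, 13.0 and 7.62 in hydrogel, 12.7, 14.6 and 9.41 in PCL and 24.7, 29.2 and 28.2 in β-TCP. Every hydrogel and PCL library was below every control and β-TCP library, while control overlapped with β-TCP and hydrogel with PCL. The group means were 28.5 ± 11.1 (SD) in control, 27.4 ± 2.38 in β-TCP, 12.2 ± 2.64 in PCL and 10.1 ± 2.73 in hydrogel, with 3 libraries each.

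Igfbp3 was higher in β-TCP than in hydrogel by 1.37 ± 0.29 on the log2 scale, or 2.59-fold, with a 95% interval of 0.73 to 2.02 and a limma adjusted p = 0.0251. It was the only member called at an adjusted p under 0.05 in this comparison, where 6.13% of all 12633 genes tested were called. The call was lost with β-TCP replicates 2 and 3 averaged (1.34 ± 0.34, limma adjusted p = 0.113, in a fit that called 2 of 12576 genes) and without β-TCP replicate 2 (adjusted p = 0.113), β-TCP replicate 3 (0.111), hydrogel replicate 1 (0.0747) or hydrogel replicate 3 (0.119), while the log2 change stayed between 1.11 and 1.56 in all 23 settings tried.

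Against PCL, Igfbp3 in β-TCP differed by 1.12 ± 0.29, or 2.17-fold (unadjusted p = 0.0029, adjusted p = 0.0999 by limma). With β-TCP replicates 2 and 3 averaged it was 1.08 ± 0.34 (unadjusted p = 0.0106, adjusted p = 0.340 by limma). Either way it met the study's own threshold, which asks for a p under 0.05 before adjustment together with a change of more than 2-fold either way, but not the adjusted one. At the study's threshold 1 of 9 members was called in this comparison, beside 4.48% of all genes, and at the adjusted threshold none was, beside 0.657%.

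Against control, Igfbp3 had a log2 change of -1.35 ± 0.29 in hydrogel (unadjusted p = 7.6e-04, adjusted p = 0.287 by limma) and of -1.09 ± 0.29 in PCL (unadjusted p = 0.0033, adjusted p = 0.131). Both met the study's threshold, which called 1 of 9 members in either comparison, beside 2.29% of all genes for hydrogel and 3.64% for PCL. Neither passed at the adjusted threshold, which called 0.00792% of all genes in hydrogel and 0.277% in PCL. The lowest control value, 16.2 FPKM in replicate 2, lay just above the highest PCL value of 14.6 FPKM. Without that library the changes were -1.70 in hydrogel and -1.44 in PCL, and the latter passed (limma adjusted p = 0.0470). Without control replicate 3, whose value was the highest, they were -1.11 and -0.86.

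Between β-TCP and control Igfbp3 differed by 0.02 ± 0.29 (95% interval -0.62 to 0.66, limma adjusted p = 0.980), and the sign of this small value turned with median-of-ratios scaling (-0.05), quantile normalization (-0.04) and β-TCP replicates 2 and 3 averaged (-0.01). PCL and hydrogel differed by 0.26 ± 0.29 (95% interval -0.38 to 0.90). The mean of the 3 scaffold groups against control gave -0.81 ± 0.24 (unadjusted p = 0.0061, adjusted p = 0.138 by limma), a mean that joins 2 groups below control and 1 at the level of control. In this comparison none of the 9 members was called at either threshold, beside 0.0396% and 1.80% of all genes.

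**Figure D2:**
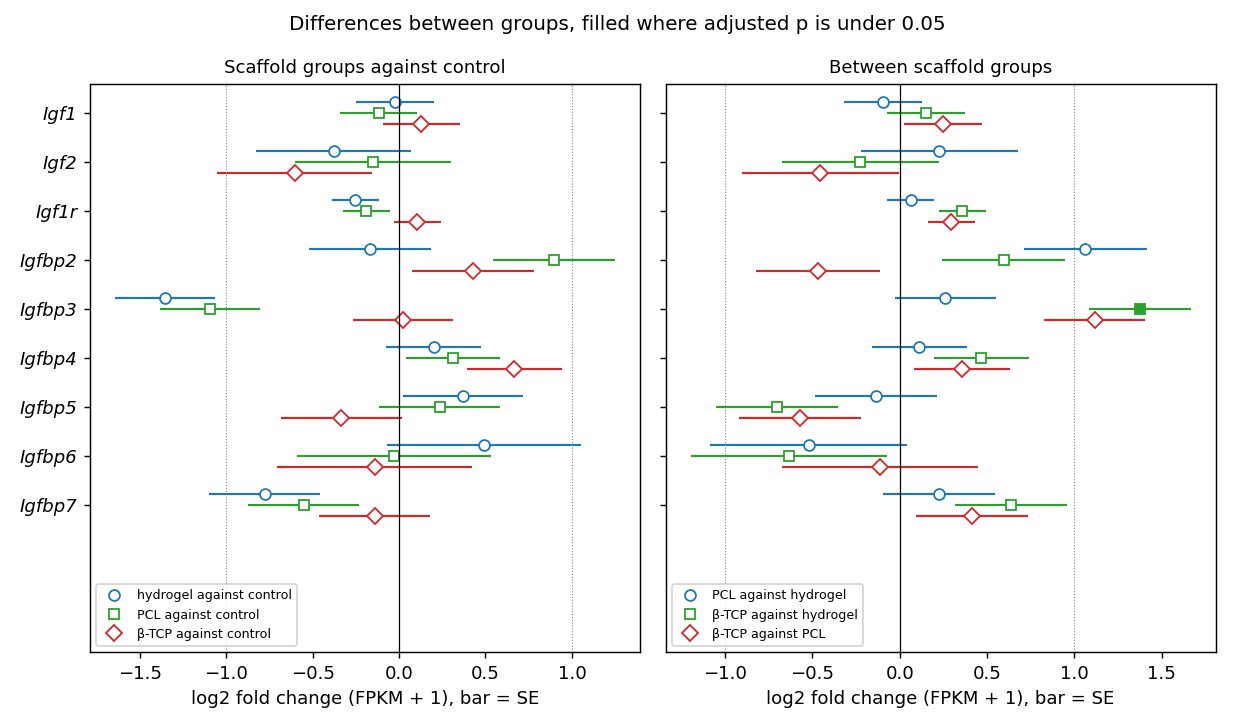
Log2 fold changes of the 9 members on the log2(FPKM + 1) scale (x axis, bars are SE from limma, 3 libraries per group), each scaffold group against control on the left and the scaffold groups against each other on the right, with dotted lines at a 2-fold change and a filled symbol where the adjusted p was under 0.05. The only filled symbol is Igfbp3 in β-TCP against hydrogel at 1.37, and Igfbp3 against control lies at -1.35 in hydrogel, -1.09 in PCL and 0.02 in β-TCP.

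Of 13 lists of cell type markers, 9 had summed levels that did not overlap between β-TCP and hydrogel, 5 higher in β-TCP and 4 lower. Of all single genes 57.6% did not overlap in this comparison, 6.13% were called at the adjusted threshold and 8.38% met the study's. The 6 pericyte and smooth muscle markers summed to 286.6 to 533.2 FPKM in β-TCP and to 141.9 to 215.1 FPKM in hydrogel, and all 6 had a positive log2 change, though none was called at an adjusted p under 0.05 and 2 met the study's threshold. The 10 endothelial markers, of which 1 stayed under 1 FPKM in every library, summed to 169.6 to 181 FPKM in β-TCP and to 128 to 164.3 FPKM in hydrogel, with none called. The 6 osteoclast markers found in the table summed to 9458 to 9661 FPKM in β-TCP and to 2279 to 5172 FPKM in hydrogel, with 4 of the 5 tested called higher. The 10 macrophage markers, of which 1 stayed under 1 FPKM in every library, summed to 1314 to 1799 against 679.9 to 1036 FPKM. Of the 9 macrophage markers tested, 3 were called higher and none lower. At the study's threshold 1 macrophage marker was higher and 1 was lower. The lower one, Cd163, had a mean of 6.92 FPKM in β-TCP and of 23.93 FPKM in hydrogel. The 10 osteoblast markers summed to 17080 to 19970 against 6257 to 15330 FPKM, with 1 called higher. Of these 10 markers, 7 had a positive log2 change and 3 a negative one. Spp1 was at 7613 to 8896 FPKM in β-TCP and at 1539 to 4178 in hydrogel. Col1a1 overlapped, at 7852 to 8537 and 3635 to 8945 FPKM, and Bglap, Ibsp and Mepe had lower means in β-TCP.

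The lists that were lower in β-TCP were those of blood and dividing cells. The 8 neutrophil markers summed to 806.5 to 1152 FPKM in β-TCP and to 2122 to 4439 FPKM in hydrogel, and 5 of the 7 tested were lower at the study's threshold. The 6 B cell markers summed to 42.5 to 98.4 against 285.9 to 541.4 FPKM, with 5 lower at that threshold, and the 8 mitotic cell cycle genes to 122 to 230.3 against 358.4 to 719 FPKM, with all 8 lower at it. The 8 erythroid markers summed to 554.6 to 1290 against 1446 to 2984 FPKM, and none met either threshold. None of the markers of these 4 lists was called at an adjusted p under 0.05. Of all genes, 6.13% were called at it and 8.38% met the study's threshold. With β-TCP replicates 2 and 3 averaged no marker of any list was called at the adjusted threshold, beside 0.0159% of all genes. Past the study's threshold, beside 5.63% of all genes, were 5 osteoclast and 2 pericyte and smooth muscle markers, all higher. Also higher was 1 marker each of the osteoblast, fibroblast and marrow stroma lists. The macrophage list had 1 higher and 1 lower. Lower were 3 neutrophil, 2 B cell and 4 cell cycle markers, and the remaining lists had none. The higher marrow stroma marker went against most of its list. With the pair kept separate, 6 of the 8 marrow stroma and adipocyte markers had a negative log2 change and 2 a positive one (median -0.56). The part of these lists in the Igfbp3 result was not tested.

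Igfbp4, which binds IGFs, keeps them from the receptor and is cut by the protease pregnancy-associated plasma protein A, was the most abundant binding protein in each scaffold group. It was at 269.6, 172 and 123 FPKM in control, at 240.2, 243 and 149 in hydrogel, at 229, 239.7 and 199.9 in PCL and at 243, 312 and 304 in β-TCP. The 3 β-TCP libraries lay above the 3 PCL libraries and overlapped with the other groups. The widest difference was β-TCP against control, at 0.67 ± 0.27 on the log2 scale (unadjusted p = 0.0331, adjusted p = 0.219 by limma), and it was 0.40 without control replicate 3, the lowest library, and 0.61 ± 0.32 with β-TCP replicates 2 and 3 averaged. In that comparison 0 of 9 members were called at the adjusted threshold, beside 4.78% of all genes, and 0 at the study's threshold, beside 3.51%, and Igfbp4 was the only member with an unadjusted p under 0.05.

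Igfbp5, the binding protein stored in bone matrix with hydroxyapatite, was at 181, 112 and 53.9 FPKM in control, 168.9, 138 and 102 in hydrogel, 132, 122 and 112 in PCL and 89.8, 76.8 and 79.0 in β-TCP. All 3 β-TCP libraries lay below all hydrogel and PCL libraries, and the control libraries spanned the range of the other groups. The log2 change of β-TCP was -0.70 ± 0.35 against hydrogel (limma adjusted p = 0.174) and -0.57 ± 0.35 against PCL (limma adjusted p = 0.344), and neither passed. With β-TCP replicates 2 and 3 averaged these changes were -0.67 ± 0.41 and -0.54 ± 0.41. Without control replicate 3, which leaves these groups as they are but narrows the shared estimate of spread, β-TCP against hydrogel passed (limma adjusted p = 0.0243), as did 37.6% of all genes tested. Igfbp3 and Igfbp5 thus had opposite signs in this comparison, and their ratio within a library was 0.275 to 0.380 in β-TCP, 0.0577 to 0.0942 in hydrogel and 0.0840 to 0.120 in PCL. In control it was 0.174, 0.144 and 0.700.

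Igfbp7, a low-affinity IGF binder that is secreted into vessel walls and matrix, was at 201, 122 and 362 FPKM in control, at 124, 144 and 98.8 in hydrogel, at 164, 146 and 118 in PCL and at 165, 202 and 200.3 in β-TCP. As with Igfbp3, all β-TCP libraries lay above all hydrogel and PCL libraries. The hydrogel group had a log2 change of -0.78 ± 0.32 against control (unadjusted p = 0.0349, adjusted p = 0.312 by limma), which was -0.38 without control replicate 3. Against hydrogel, β-TCP had a log2 change of 0.64 ± 0.32 (limma adjusted p = 0.179), or 0.59 ± 0.38 with the pair averaged.

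Igfbp6, which prefers IGF2 over IGF1, was at 11.7, 5.84 and 33.5 FPKM in control, 15.0, 25.7 and 18.4 in hydrogel, 20.7, 6.83 and 15.6 in PCL and 7.25, 15.2 and 15.7 in β-TCP. All groups overlapped, and its SE of 0.56 on the log2 scale was the widest of the 9 members. The largest difference, β-TCP against hydrogel, was -0.63 ± 0.56 with a 95% interval of -1.88 to 0.61 (limma adjusted p = 0.420), and it was -0.80 ± 0.65 with the pair averaged.

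Igfbp2, which also binds integrins, was close to the lower limit of the data, with 4 to 64 fragments in a library. It was at 0.405, 2.04 and 0.237 FPKM in control, 0.930, 0.196 and 0.616 in hydrogel, 1.48, 2.45 and 2.98 in PCL and 0.682, 1.67 and 1.87 in β-TCP. The 3 PCL libraries lay above the 3 hydrogel libraries, and PCL overlapped with control and β-TCP. PCL against hydrogel gave a log2 change of 1.06 ± 0.35 (unadjusted p = 0.0124, adjusted p = 0.588 by limma), which met the study's threshold. In that comparison 1 of 9 members met it, beside 0.768% of all genes, and 0 were called at the adjusted threshold, beside 0.103%. PCL against control gave 0.90 ± 0.35 (unadjusted p = 0.0283, adjusted p = 0.236 by limma). A pseudocount of 1 understates the change of so low a gene, and on the recovered fragments limma-voom gave 2.12 ± 0.75 for PCL against hydrogel with an adjusted p = 0.600.

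Over the 9 members, the median log2 change against control was -0.17 in hydrogel, -0.12 in PCL and 0.02 in β-TCP, beside 0.14, 0.04 and 0.03 over all genes tested. Median-of-ratios scaling brought the median of all genes in hydrogel against control from 0.14 to 0.02. In β-TCP the median was 0.36 against hydrogel and 0.25 against PCL, beside -0.06 and 0.04 over all genes, and in PCL against hydrogel it was 0.11, beside -0.06. In the 6 comparisons in which limma called no member at the adjusted threshold, limma-voom on the recovered fragments called none either. In these comparisons limma-voom called 0.00792 to 3.78% of all genes. No neighbouring groups in the order of a member's means passed the adjusted threshold. In β-TCP against hydrogel 1 of 9 members, Igfbp3, met the study's threshold, beside 8.38% of all genes. The libraries of 4 of the 9 members did not overlap between β-TCP and hydrogel and those of 6 did not between β-TCP and PCL, where 57.6% and 44.9% of all genes did not. In the other pairs these numbers were 2 for hydrogel against control, 1 for PCL against control, 0 for β-TCP against control and 1 for PCL against hydrogel, beside 15.1%, 18.2%, 22.9% and 20.5% of all genes.

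Ratios within a library do not depend on how libraries are scaled to each other. The 6 binding proteins summed to 376.3 to 695.4 FPKM and exceeded the 2 ligands by 11.4-fold to 18.3-fold, with group means of 14.5 ± 3.42 (SD) in control, 13.3 ± 1.77 in hydrogel, 14.5 ± 1.89 in PCL and 15.3 ± 2.52 in β-TCP. Every pair of groups overlapped in this ratio. The make-up of the sum varied more. Igfbp4 held 45.8, 49.0 and 48.3% of it in β-TCP, 43.0, 43.1 and 39.5% in hydrogel and 40.9, 45.1 and 43.7% in PCL, so that every β-TCP share was above every other scaffold share. Igfbp5 held 16.9, 12.1 and 12.6% in β-TCP, below its 24.5 to 30.2% in hydrogel and its 22.9 to 24.5% in PCL. The share of Igfbp3 was 4.48 to 4.65% in β-TCP, 1.74 to 2.31% in hydrogel and 2.06 to 2.75% in PCL. In control replicates 1 and 2 the shares of Igfbp4 were 38.8 and 40.0%, and in control replicate 3 Igfbp7 alone held 59.3%, against 22.1 to 31.8% in the other 11 libraries. These shares are given without a test.

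**Figure D3:**
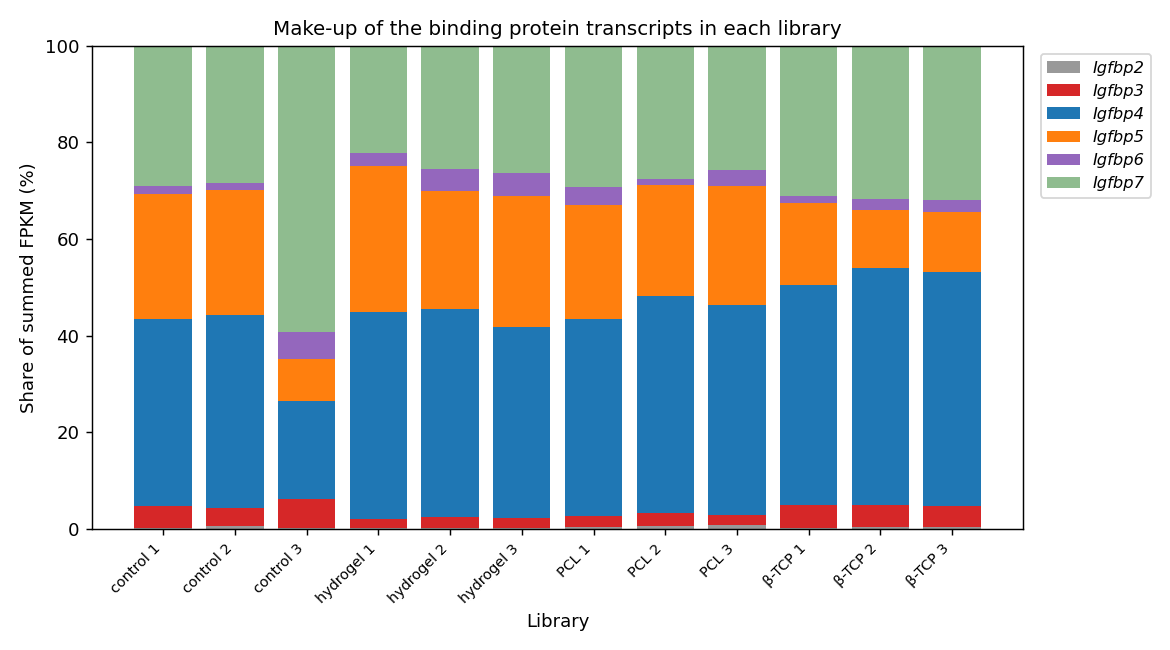
Share of each binding protein in the summed FPKM of Igfbp2 to Igfbp7 (y axis, %) in each of the 12 libraries (x axis, 1 stacked bar each). Igfbp5 (orange) is narrower in the 3 β-TCP bars, at 12.1 to 16.9%, than in the hydrogel and PCL bars, at 22.9 to 30.2%, and control replicate 3 differs from all others by an Igfbp7 share of 59.3%.

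The other genes of the pathway were counted in lists by role. Of 12 other receptors, carriers and proteases, 8 passed the filter on low values. In β-TCP against hydrogel 3 of these 8 were called higher at an adjusted p under 0.05 and none lower, beside 6.13% of all genes called in either direction, and the median over the 8 log2 change was 0.55, beside -0.06 over all genes, whereas none was called in any other comparison. Htra1, a secreted serine protease that cuts matrix and IGF-binding proteins, was at 292, 345 and 355 FPKM in β-TCP and at 133, 205 and 82.2 in hydrogel, a log2 change of 1.32 ± 0.34 (limma adjusted p = 0.0469). Igf2r, the receptor that clears IGF2 and sorts lysosomal enzymes, was at 52.0, 61.2 and 62.1 FPKM in β-TCP and at 29.3, 35.1 and 23.3 in hydrogel, a log2 change of 0.99 ± 0.24 (limma adjusted p = 0.0382). Stc1, whose protein stanniocalcin blocks pregnancy-associated plasma protein A, was at 3.76, 4.33 and 3.49 FPKM in β-TCP and at 1.13, 1.40 and 1.14 in hydrogel, a log2 change of 1.12 ± 0.27 (limma adjusted p = 0.0402). β-TCP and hydrogel did not overlap in these 3 genes, as in 57.6% of all genes. In control Htra1 was at 150.9 to 344.1 FPKM, Igf2r at 31.9 to 60.9 and Stc1 at 2.26 to 6.92, all overlapping with β-TCP. In PCL they were at 124.3 to 168.6, 33.3 to 48.1 and 0.863 to 1.79 FPKM. All 3 calls were lost with β-TCP replicates 2 and 3 averaged, where the limma adjusted p were 0.176, 0.158 and 0.148.

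Of 3 IGF2 mRNA-binding proteins only Igf2bp2 passed the filter. It was at 1.69, 1.99 and 2.42 FPKM in β-TCP, 0.564, 0.840 and 0.495 in hydrogel, 1.12, 0.953 and 0.814 in PCL and 0.686, 0.708 and 1.5 in control. Its β-TCP libraries were the 3 highest of the 12. Besides them, only control replicate 3 and PCL replicate 1 reached 1 FPKM. Without the β-TCP libraries Igf2bp2 would not have passed the filter, so its test depended on the group where it was high. The log2 change of β-TCP against hydrogel was 0.89 ± 0.17 (limma adjusted p = 0.0205), and 0.0952 was the adjusted p with the pair averaged. This comparison called 6.13% of all genes with the pair kept separate.

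Among 27 adaptors and signaling genes below the receptor, all tested, the median log2 change was within 0.12 of 0 in each of the comparisons described here. Pik3cb, a catalytic subunit of PI3 kinase, was the only one called. It was at 8.44, 8.95 and 9.15 FPKM in β-TCP, 5.48, 5.01 and 4.0 in control, 4.804, 5.95 and 4.92 in hydrogel and 8.85, 7.77 and 6.17 in PCL. It was higher in β-TCP than in control by 0.76 ± 0.15 (limma adjusted p = 0.0212) and than in hydrogel by 0.67 ± 0.15 (limma adjusted p = 0.0284). Of all genes, 4.78% and 6.13% were called in these comparisons. With the pair averaged the change was 0.75 ± 0.17 against control (limma adjusted p = 0.106) and 0.65 ± 0.17 against hydrogel (limma adjusted p = 0.127), so that both calls were lost.

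Of the 6 genes of the growth hormone axis, whose median log2 change in β-TCP against hydrogel was -0.24, only Socs2, a feedback inhibitor of growth hormone receptor signaling, was called lower in β-TCP than in hydrogel (log2 change -1.03 ± 0.26, limma adjusted p = 0.0471). It was at 7.38, 6.86 and 5.84 FPKM in β-TCP and at 14.7, 13.1 and 16.5 in hydrogel, with 5.30 FPKM in control replicate 3 and 12.2 to 14.8 in the remaining control and PCL libraries. Of 10 imprinted growth genes, 8 were matched and tested, with a median of 0.18, and only Dlk1, a membrane protein of immature stromal and fat precursors, was called lower in the same comparison (-1.54 ± 0.39, limma adjusted p = 0.0444). It was at 0.741, 0.574 and 0.648 FPKM in β-TCP and at 2.67, 3.17 and 6.29 in hydrogel. In control it was at 0.800 to 2.49 FPKM and in PCL at 0.617 to 3.68 FPKM. Over all genes tested, 6.13% were called in β-TCP against hydrogel, and the median log2 change was -0.06. With the pair averaged the limma adjusted p was 0.176 for Socs2 and 0.163 for Dlk1.

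The genes most like each member were sought among 9017 tested genes with a mean of at least 5 FPKM, by Pearson correlation of log2(FPKM + 1) over the 12 libraries, which share groups and the outlying control library. These correlations are descriptions. Igfbp3 was most like Col18a1 (r = 0.967, Spearman 0.958), a basement membrane collagen, and Vwa1 (r = 0.965), another matrix protein. Igfbp5 was most like Cma1 (r = 0.955, Spearman 0.930) and Hdc (r = 0.949), mast cell genes that encode a chymase and histidine decarboxylase. Cma1 was at 47.1 to 66.2 FPKM in β-TCP, 28.3 FPKM in control replicate 3 and 87.8 to 252 FPKM in the other libraries, the same split of libraries as for Igfbp5. Igfbp7 was most like Slc9a3r2 (r = 0.988), a scaffold protein of membrane transporters, and Chpf (r = 0.983), an enzyme of chondroitin synthesis. Igfbp4 was most like Tpd52 (r = 0.978) and Arrb1 (r = 0.967), and Igf1r most like Arfip1 (r = 0.943) and Rab31 (r = 0.942). For Igf1 the nearest were Tmem205 (r = 0.907) and Rhoq (r = 0.899), and for Igfbp2 they were Iqsec1 (r = 0.859) and Cltc (r = 0.827). The weakest likeness was found for Igf2, with Fhl1 (r = 0.824, Spearman 0.580) and Itm2a (r = 0.821), and for Igfbp6, with Mfap5 (r = 0.782), a microfibril protein, and Crip1 (r = 0.745).

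**Figure D4:**
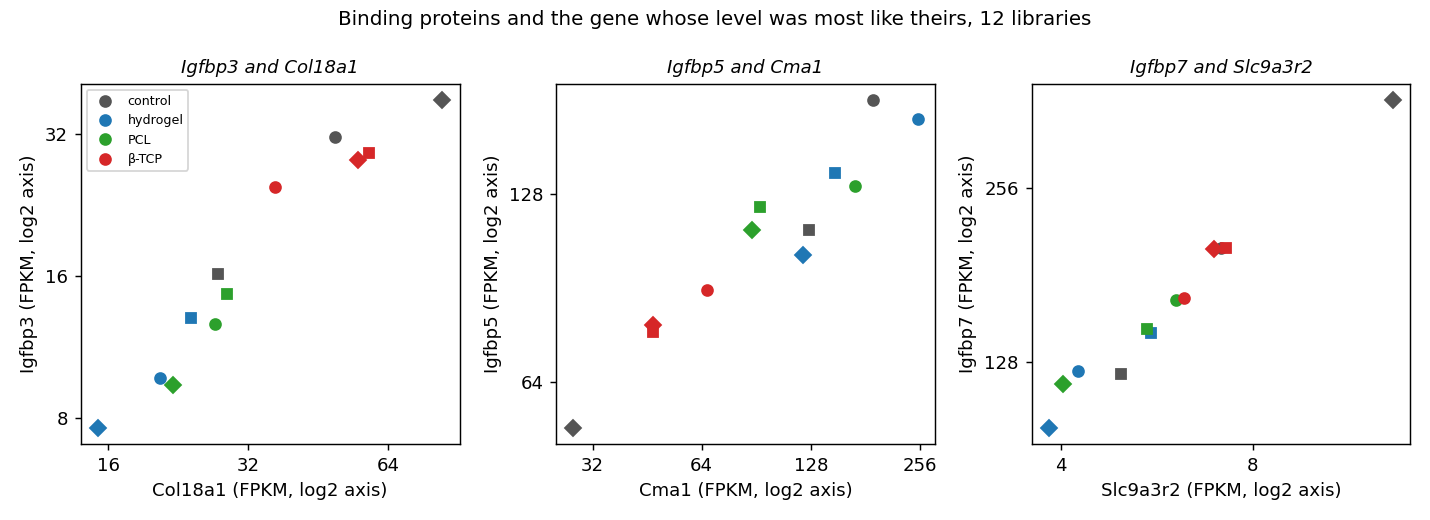
Level of Igfbp3, Igfbp5 and Igfbp7 (y axes, FPKM, log2 axis) against the gene most like each, Col18a1, Cma1 and Slc9a3r2 (x axes, FPKM, log2 axis), with 1 point per library, coloured by group and with circle, square and diamond for replicates 1, 2 and 3. In each panel control replicate 3 (grey diamond) lies at an end of the range, and the β-TCP points lie in the upper part for Igfbp3 and in the lower part for Igfbp5.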

How the data were processed

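RNA of regenerated bone tissue was sequenced in 12 libraries, grouped by the group named in their labels, 3 libraries each. The values used are FPKM per gene as deposited: the authors cleaned reads with Trimmomatic, mapped them by HISAT2 and computed FPKM with Cufflinks. The build given by the submitters' processing notes is Rnor_6.0, and those notes list HTSeq, DESeq, Bowtie and StringTie as well, without versions. The study's methods and the labels name different extraction kits, library kits and sequencers, and which applies is not settled here. Of the table's columns, 3 that match no sample were not used.

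A gene was tested where 3 or more libraries reached 1 FPKM (12633 genes, all 9 members among them). Limma 3.58.1 (R 4.3.3) was fitted to log2(FPKM + 1) over all 12 libraries at once, a mean for each group, with a mean-dependent prior variance, and two-sided p were adjusted by Benjamini-Hochberg over the genes tested. All 6 pairs of groups and the mean of the scaffold groups against control were compared. Changes and SE are on that scale, where the pseudocount of 1 understates changes of low genes. In 18684 of 18684 genes above 0, the FPKM were whole multiples of a single step (tolerance 0.01 of a fragment), which gave the depth and the fragments for limma-voom. The fit and the recovery of fragments were tested on simulated data. The simulated libraries varied independently, without an outlying library or a near-alike pair. That test therefore does not cover those features of these data.

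The members, the 18 other gene lists (175 of 178 symbols matched over all lists, 1 of them by a synonym) and the tests were chosen with earlier results of these data known. Named beside the members are the genes of a pathway list at an adjusted p under 0.05, at most 4 per list by size of change, and the 2 genes most like each member. Promoters were matched by symbol in RefSeq for all 9 members. The alternatives were pseudocounts of 0.1 and 5, other filters, median-of-ratios and quantile scaling, the groups compared alone, a replicate block, no trend, limma-voom, the near-alike β-TCP pair averaged and each library left out. Tables and figures were made with Python 3.11.15, pandas 2.3.3 and matplotlib 3.10.9.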

Additional observations from a re-analysis of the deposited data

Results flagged for a closer look

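In 8 genes of the members and pathway lists the level differed between β-TCP and hydrogel, by limma with 3 libraries a group. This comparison called 6.13% of all 12633 genes. The 8 were 1 of 9 members and 3 of 8 other receptors, carriers and proteases tested. They were also 1 of 1 mRNA-binding protein, 1 of 27 signaling, 1 of 6 growth hormone and 1 of 8 imprinted genes. The mRNA-binding protein, Igf2bp2, would not have passed the filter without the β-TCP libraries, where it was high. Against control, only Pik3cb of the 8 was called in β-TCP and none in hydrogel. Igfbp3 had a log2 difference of 1.37 (adjusted p = 0.0251), Igf2bp2 of 0.89 (0.0205), Pik3cb of 0.67 (0.0284), Igf2r of 0.99 (0.0382), Stc1 of 1.12 (0.0402) and Htra1 of 1.32 (0.0469), all higher in β-TCP. Dlk1, with -1.54 (adjusted p = 0.0444), and Socs2, with -1.03 (adjusted p = 0.0471), were lower in β-TCP. The libraries of the 2 groups did not overlap in any of these 8 genes, which were picked by that difference, as in 57.6% of all genes tested. With the near-alike β-TCP replicates 2 and 3 averaged none of the 8 was called. The limma adjusted p were then 0.113 for Igfbp3, 0.0952 for Igf2bp2, 0.127 for Pik3cb, 0.158 for Igf2r, 0.148 for Stc1, 0.176 for Htra1, 0.163 for Dlk1 and 0.176 for Socs2, in a fit that called 2 of 12576 genes. With the replicate block Igfbp3 (0.0623), Igf2r (0.0880), Stc1 (0.0872), Htra1 (0.103), Dlk1 (0.0914) and Socs2 (0.0786) lost their calls too, while Igf2bp2 (0.0446) and Pik3cb kept them. No test for a value far from the rest of its group was run, since each group held 3 libraries. Control replicate 3 is described as set apart by its marker sums.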

How the results depend on the processing

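Of 365 recomputed fold changes of members, 346 kept their direction and their side of the adjusted threshold. Recomputed were changes with an unadjusted limma p under 0.05, those of Igfbp3 and the widest pairwise change of each member. All but 1 were uncalled at the start and counted as kept when they stayed uncalled with the same sign. The called one, Igfbp3 in β-TCP against hydrogel, kept its call in 17 of 23 settings. Igfbp3 in β-TCP against hydrogel lost its call (0 members called) with β-TCP replicates 2 and 3 averaged and with the replicate block (1.37 ± 0.32, limma adjusted p = 0.0623). The fit of only the groups compared called 4 members there (Igf1r, Igfbp3, Igfbp5 and Igfbp7) and 2 in β-TCP against PCL (Igfbp3 and Igfbp5), where it called 33.6% and 17.3% of all genes, against 6.13% and 0.657% with all groups fitted. With 1 library left out, the members called at the adjusted threshold numbered 0 to 4 in β-TCP against hydrogel (4 without control replicate 3, where 37.6% of all genes were called, and 0 where 0.0159 to 1.80% were), 0 to 1 in β-TCP against PCL and 0 to 1 in PCL against control. At the study's threshold, leaving out 1 library gave 1 to 2 members in hydrogel against control, 0 to 2 in PCL against control, 0 to 1 in PCL against hydrogel, 0 to 1 in β-TCP against PCL and 0 to 1 for the mean of the scaffold groups. That threshold called 2 members in PCL against control with a pseudocount of 0.1 and with limma-voom. With a pseudocount of 5 it called 0 in PCL against control, 0 in β-TCP against PCL and 0 in PCL against hydrogel, and with a mean of at least 5 FPKM, which removes Igfbp2, it called 0 in PCL against hydrogel. The small change of Igfbp3 in β-TCP against control turned negative with median-of-ratios scaling (-0.05), quantile normalization (-0.04) and the averaged pair (-0.01), and spanned -0.33 to 0.26 with 1 library left out. The causes were not tested.

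The other pathway genes called in β-TCP against hydrogel numbered 7, and 2 without a filter, 4 with a mean of at least 5 FPKM, 15 with only the groups compared, 2 with the replicate block, 3 with limma-voom, 0 with the averaged pair and 0 to 20 with 1 library left out (20 without control replicate 3). In β-TCP against control they numbered 1, and 0 with only the groups compared or the averaged pair and 0 to 6 with 1 library left out. In β-TCP against PCL they numbered 0, and 12 with only the groups compared and 0 to 11 with 1 library left out, and in PCL against control 0, and 0 to 1 with 1 library left out.

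With Igfbp7 left out of the sum, by construction, Igfbp4 made up 53.3% in control, 55.5% in hydrogel, 59.6% in PCL and 69.7% in β-TCP, Igfbp5 made up 31.6%, 36.2%, 32.6% and 20.2%, and binding proteins exceeded ligands 9.14-fold, 10.1-fold, 10.5-fold and 10.5-fold. Over 18 same-number pairs of libraries the correlation of deviations had a median of -0.18 and passed 0.1 in 4. Over 36 pairs of other numbers the median was 0.04, and 15 passed 0.1. The same-number pairs were thus not more alike than the others. The deviations of the few libraries in a group depend on each other. These correlations therefore cannot tell whether the replicate numbers mark a shared batch or animal. The block changed no other call of a member. Depth limits Igfbp2 most, with 4 to 64 fragments per library.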
